A study of Mus musculus with 6 samples.

Results

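The genes described here are 10 that cytokines switch on through the transcription factor STAT5: the feedback inhibitors Cish, Socs1, Socs2 and Socs3, the PIM kinase genes Pim1, Pim2 and Pim3, the cytokine Osm, the cytokine receptor chain Il2ra and the stress gene Gadd45g. All 21 probe sets that the platform annotation assigns to 1 of these genes alone were kept, out of 45037 non-control probe sets tested. The genes were chosen by general knowledge of STAT5 targets and by their measured dKO minus control differences on these arrays, which were known when they were proposed. The values of that difference therefore describe them and are no independent evidence about the group.

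RNA came from long-term haematopoietic stem cells (LT-HSCs), which were sorted from bone marrow as Lin-Sca1+CD150+CD48- cells. The dKO mice carried floxed c-myc and N-myc with MxCre, a recombinase driven by an interferon-responsive promoter that acts in many cell types. Control mice lacked the recombinase but had both floxed genes. All mice were 8 weeks old, on a mixed background, and were given 2 daily doses of pI-pC, a synthetic double-stranded RNA that induces interferon, and cells were taken 3 days after the last dose. Each group had 3 arrays, each from its own pool of 3 dKO or 2 control mice. Mice without pI-pC were not part of the comparison. Values are RMA expression values on the log2 scale, on which a difference of 1 is a doubling. The precision of every value is limited by the number of arrays, 3 in each group.

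Cytokines of the blood system, such as erythropoietin and interleukin-3, bind receptors that carry Janus kinases (JAKs), and the JAKs phosphorylate STAT5, which then enters the nucleus. CIS (encoded by Cish) and the SOCS proteins are made in response and close the loop: an SH2 domain binds phosphorylated receptors or JAKs, and a SOCS box recruits a ubiquitin ligase. PIM kinases need no activating phosphorylation, so their activity follows their abundance, and they promote survival and protein synthesis.

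Promoter sequences are shown for 4 genes because each holds a binding motif of STAT5, by which the genes were grouped, or of Myc, the target of the deletion. The RefSeq promoter table (GRCm38.p6) had an entry for 8 of the 10 genes, all but Socs2 and Osm. Each entry covers 250 bases before to 50 bases after a transcription start. TTCNNNGAA, the STAT motif, and CACGTG, the E-box bound by Myc and its partner Max, read the same on both strands and do not overlap each other in these promoters. Capitals mark the STAT motif in Cish and Socs3 and the E-box in Gadd45g and Pim1. The windows of 100 bases are chr9:107296579-107296678 (plus strand), chr11:117969467-117969566 (minus strand), chr13:51846485-51846584 (plus strand) and chr17:29492975-29493074 (plus strand, before the downstream of the 2 Pim1 starts listed).
Cish: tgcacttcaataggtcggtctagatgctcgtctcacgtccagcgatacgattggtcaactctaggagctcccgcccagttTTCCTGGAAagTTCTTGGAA
Socs3: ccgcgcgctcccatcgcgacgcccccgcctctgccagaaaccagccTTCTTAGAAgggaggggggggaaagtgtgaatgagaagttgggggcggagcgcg
Gadd45g: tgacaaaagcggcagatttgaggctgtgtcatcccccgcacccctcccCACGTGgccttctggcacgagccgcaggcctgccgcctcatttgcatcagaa
Pim1: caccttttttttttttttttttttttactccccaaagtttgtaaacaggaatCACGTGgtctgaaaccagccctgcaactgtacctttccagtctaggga

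Cish held 2 STAT motifs, which began at base 1 (the start itself) and base 12 of the transcript, and Socs3 held 1, which began 154 bases before it. Of 32851 promoter entries in the table, 8.30% held at least 1 such motif and 0.457% at least 2. The E-box lay 142 bases before the Gadd45g start and 58 bases before the downstream of the 2 Pim1 starts, and 7.15% of all entries held one. Neither motif was found in the window of the upstream Pim1 start or in the windows of Socs1, Pim2, Pim3 and Il2ra. These matches describe the letters of the windows and do not show binding.

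As a check of the labels, Myc was read by 1 probe set at 10.40, 10.57 and 10.12 in controls and at 7.28, 7.77 and 7.24 in dKO arrays. Of 3 Mycn probe sets, 2 fell. One fell at least 119-fold: its dKO mean, 3.46, was no higher than the array's negative controls, so the fold is set against the highest of these, 3.92. The other fell by 1.61 ± 0.22 (SE, log2). The 10 measured HSC markers were all above the median of all probe sets in at least 1 group. Slamf1, which encodes the CD150 of the sort gate and was singled out after its value was seen, had means of 9.16 in controls and 9.24 in dKO cells. Over all genes, each by its brightest probe set, 4.49% were called higher and 3.56% lower. Of the HSC markers, 5 were lower in dKO cells and 0 higher (limma; 0 also at an unadjusted p under 0.05), and their summed log2 level was 94.3 to 95.2 in controls and 82.3 to 87.3 in dKO arrays. Megakaryocyte markers were higher at 3 of 5 genes, with sums of 38.6 to 39.9 and 46.6 to 49.2, and mast cell and basophil markers at 1 of 6, with sums of 28.0 to 30.9 and 33.0 to 37.5. Among the other cell type lists, 1 of 5 NK cell genes and 1 of 6 monocyte and macrophage genes were higher, and 1 of 4 erythroid genes and 1 of 5 regulatory T cell and ILC2 genes were lower. In T cell (6), B cell (5) and granulocyte (7) genes, 0 passed limma's test, and 0, 0 and 2 had an unadjusted p under 0.05. RNA integrity, read from the array's Gapdh control probes as the 3' signal less the 5' signal, gave 2.12 to 2.36 for controls and 2.39 to 2.47 for dKO cells. The same measure from the beta-actin control probes overlapped between the groups, at 0.10 to 0.23 and 0.20 to 0.21. The part of these marker and Gapdh shifts in the results that follow was not tested. In a bulk sample, fewer cells of a type and less RNA per cell cannot be told apart.

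Of the 21 probe sets, 14 were higher in dKO cells, 0 lower and 7 not called at a limma adjusted p of 0.05 over the whole array. Across the array, 6.99% of probe sets were called, 3.57% higher and 3.41% lower. None of the 21 was lower at an unadjusted p under 0.05. Without dKO replicate 1 or dKO replicate 3, 9 were called higher. The same 14 had dKO values that were all above every control value, a pattern shown by 13.4% of all probe sets, while 27.4% were apart in either direction. The median difference of the 21 was 1.13 on the log2 scale, against -0.01 over all probe sets. By the brightest probe set of each gene, 8 of the 10 genes rose, and Socs1 and Pim3 did not pass the test. The choice of members used this comparison, so nothing is read from these shares.

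**Figure D1:**
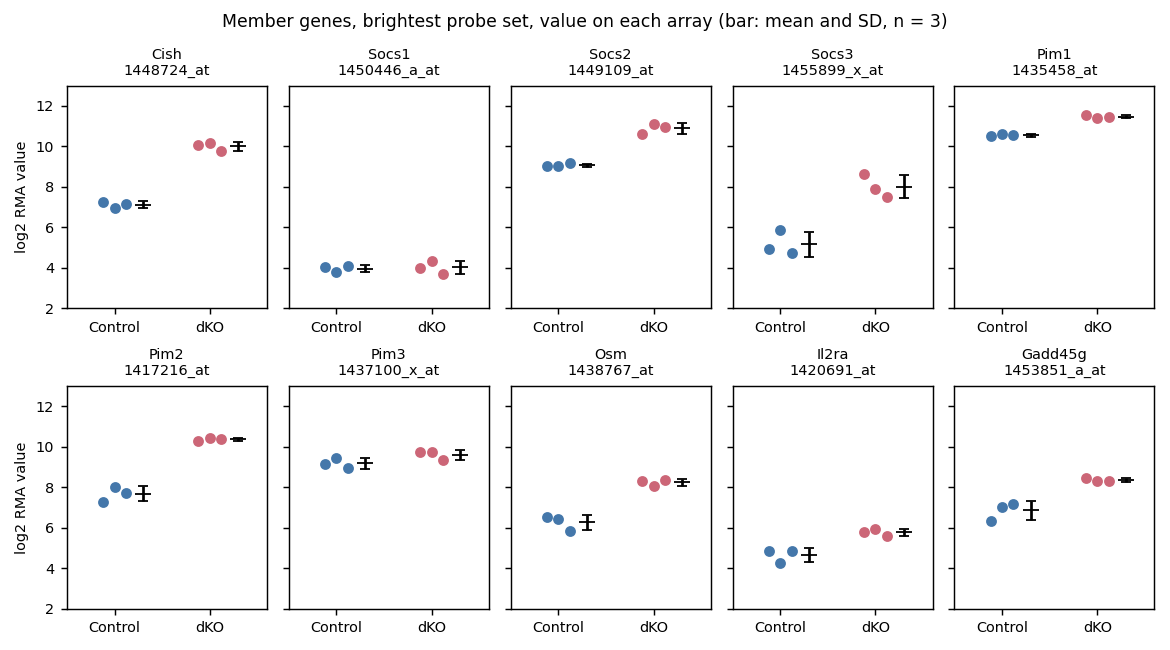
The log2 RMA value on each array (y axis) is plotted for the brightest probe set of each of the 10 genes, with control arrays in blue, dKO arrays in red and a bar for the mean and SD (n = 3). The red points lie above all blue points in 8 panels, and the groups overlap for Socs1 and Pim3.

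Cish, the feedback inhibitor that binds activated cytokine receptors, read 7.25, 6.94 and 7.18 on the 3 control arrays and 10.09, 10.18 and 9.77 on the dKO arrays. The lowest dKO value lay 2.52 log2 units above the highest control value. The mean went from 7.12 ± 0.16 to 10.02 ± 0.22 (SD, n = 3 each), a 7.44-fold rise (log2 difference 2.90 ± 0.17 SE, limma adjusted p = 7.92e-04). Ordered by signed difference from the highest, this probe set was number 53 of 45037.

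Socs2, which restrains growth hormone and related signals, had 6 probe sets. The pair that the annotation ties to the RefSeq transcript were the brightest. Probe set 1449109_at read 9.01, 9.03 and 9.17 in controls and 10.60, 11.09 and 10.97 in dKO arrays, a rise of 1.82 ± 0.17 (SE, log2; limma adjusted p = 0.00282). Probe set 1418507_s_at read 8.31, 8.93 and 8.95 in controls and 10.51, 10.90 and 10.62 in dKO arrays, a rise of 1.95 ± 0.21 (adjusted p = 0.00506). Their lowest dKO values stood 1.43 and 1.56 above the highest control. Of the 4 other probe sets, 3 rose by 1.62 ± 0.34, 1.09 ± 0.22 and 0.73 ± 0.16. The remaining one, 1441476_at, differed by 0.83 (95% interval -0.25 to 1.90, adjusted p = 0.360) and its groups overlapped, with dKO values of 5.11, 5.74 and 6.86. The 3 dimmer calls were not stable to leaving out an array: 1446085_at was kept only without control replicate 3, 1442586_at only without dKO replicate 1, and 1438470_at in no case, with adjusted p up to 0.102, 0.0992 and 0.112.

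Socs3, the inhibitor of signals through gp130 and the G-CSF receptor, gave different answers by probe set. Probe set 1455899_x_at read 4.93, 5.86 and 4.72 in controls and 8.62, 7.88 and 7.52 in dKO arrays, a 7.16-fold rise (log2 difference 2.84 ± 0.38 SE, adjusted p = 0.00842). Probe set 1456212_x_at read 4.12, 4.46 and 3.59 in controls and 7.62, 7.02 and 6.62 in dKO arrays, a rise of 3.03 ± 0.31 (adjusted p = 0.00398). In both, dKO replicate 1 was the highest and dKO replicate 3 the lowest dKO array. One of the 3 control values of 1456212_x_at fell among the values of the array's 3 negative controls (2.13 to 3.92), and the rise starts near background. The suffix _x_at marks probe sets with probes that may also bind other transcripts. The third probe set, 1416576_at, which the annotation ties to the RefSeq transcript, read 5.02, 4.60 and 4.31 in controls and 5.58, 5.30 and 4.63 in dKO arrays. Its groups overlapped, and its difference of 0.53 did not pass the test (95% interval -0.14 to 1.20, adjusted p = 0.345). The mean over all 3 probe sets rose by 2.13 (adjusted p = 0.00430).

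Socs1, which blocks JAK activity and is the main SOCS brake on interferon signalling, was read by 1 dim probe set. It stood at 4.04, 3.79 and 4.09 in controls and at 4.02, 4.33 and 3.72 in dKO arrays. The groups overlapped fully, and 1 value in each group lay within the negative control range. The difference was 0.05 ± 0.19 (SE, log2; adjusted p = 0.912), with a 95% interval of -0.39 to 0.50. A probe set this close to background sets only a weak limit on a change of the transcript.

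**Figure D2:**
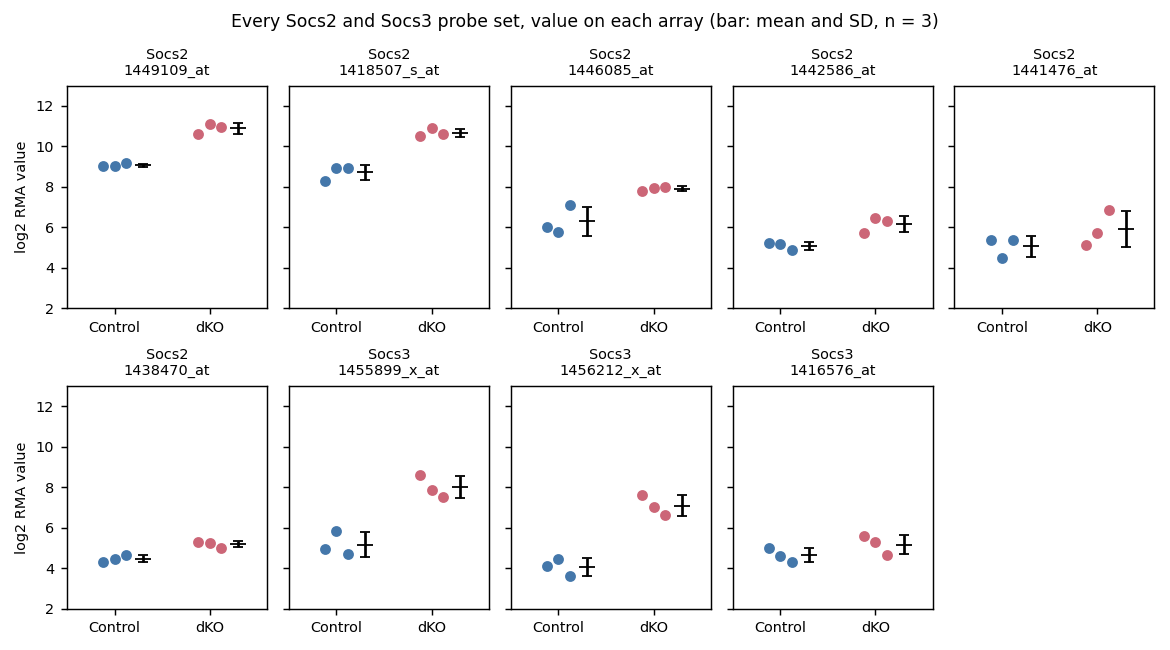
The log2 RMA value on each array (y axis) is plotted for the 6 Socs2 and 3 Socs3 probe sets, with control arrays in blue, dKO arrays in red and a bar for the mean and SD (n = 3). The groups are apart in 7 panels and overlap in Socs2 1441476_at and Socs3 1416576_at.

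Among the PIM kinases, Pim2 moved furthest. Its probe set read 7.29, 8.02 and 7.71 in controls and 10.30, 10.44 and 10.36 in dKO arrays. The dKO values were close together (SD 0.07), and the lowest was 2.28 above the highest control. This was a 6.47-fold rise (log2 difference 2.69 ± 0.20 SE, adjusted p = 0.00171). Pim1, first found as a site of viral insertion in lymphomas, had 2 probe sets that both rose. The brighter, 1435458_at, read 10.49, 10.63 and 10.56 in controls and 11.54, 11.39 and 11.48 in dKO arrays, a difference of 0.91 ± 0.13 (SE; adjusted p = 0.00966). It was narrow in both groups, with SDs of 0.07 and 0.08. The dimmer, 1423006_at, read 7.05, 7.22 and 7.13 in controls and 8.42, 7.87 and 8.49 in dKO arrays, a difference of 1.13 ± 0.19 (adjusted p = 0.0186). That second call was kept only without dKO replicate 2 when 1 array was left out, with adjusted p up to 0.0671 otherwise.

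Pim3 had 3 probe sets, and 0 of them passed limma's test (0 also at an unadjusted p under 0.05). The brightest, 1437100_x_at, read 9.16, 9.45 and 8.93 in controls and 9.76, 9.76 and 9.33 in dKO arrays. Its lowest dKO value was under its highest control value, and the difference was 0.43 ± 0.19 (adjusted p = 0.252). Probe sets 1451069_at and 1438956_x_at differed by 0.16 and -0.09. The 95% interval of the brightest ran from -0.02 to 0.89, below the whole interval of Pim2, 2.23 to 3.16, and partly over that of Pim1, 0.61 to 1.21. The difference between these genes was not itself tested.

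**Figure D3:**
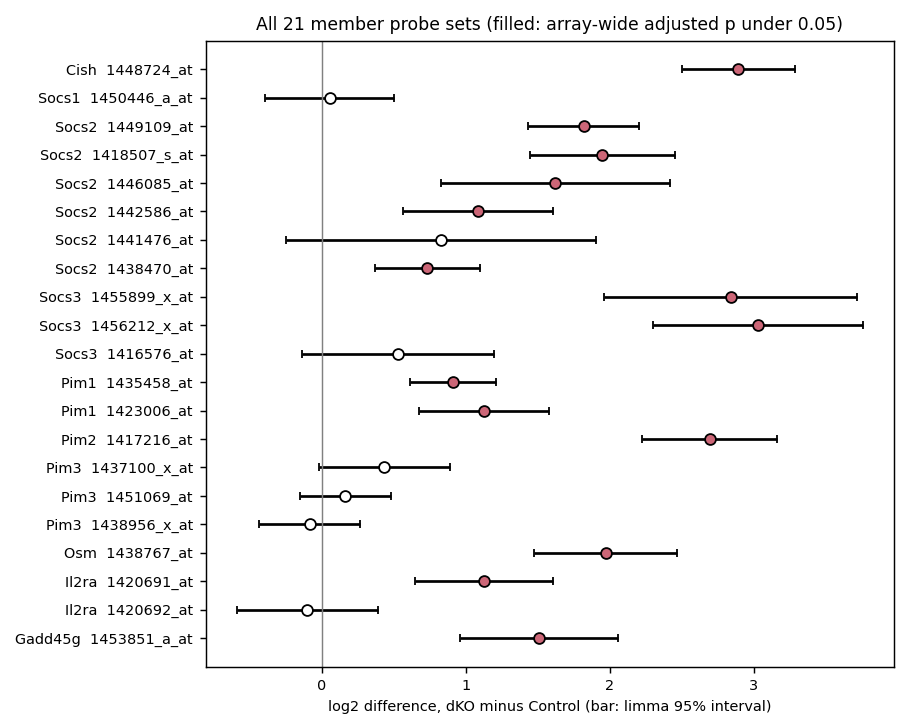
The log2 difference, dKO minus control (x axis), is plotted with its limma 95% interval for all 21 probe sets, filled red where the array-wide adjusted p was under 0.05. The 14 filled points lie between 0.73 and 3.03, and the 7 open points between -0.10 and 0.83 have intervals that include 0.

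Osm encodes oncostatin M, a cytokine of the gp130 family that is a direct STAT5 target. It read 6.52, 6.46 and 5.85 in controls and 8.33, 8.05 and 8.36 in dKO arrays. The groups were 1.53 apart at their nearest values, and the rise was 3.92-fold (log2 difference 1.97 ± 0.21 SE, adjusted p = 0.00465). Gadd45g, a small protein that binds the kinase MEKK4 and cell cycle regulators, read 6.34, 7.04 and 7.19 in controls and 8.47, 8.32 and 8.32 in dKO arrays. Control replicate 1 was the lowest array, and the dKO values were close together. The rise was 2.85-fold (log2 difference 1.51 ± 0.23 SE, adjusted p = 0.0136), and without dKO replicate 1 the adjusted p was 0.0542.

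Il2ra encodes CD25, the chain that gives the interleukin-2 receptor its high affinity. Probe set 1420691_at read 4.87, 4.25 and 4.84 in controls and 5.81, 5.93 and 5.59 in dKO arrays. The groups did not overlap, but both means were under the lowest array median, 5.90. The difference was 1.13 ± 0.20 (SE, log2; adjusted p = 0.0222), and it missed the threshold without dKO replicate 1, 2 or 3, with adjusted p of 0.0756, 0.0774 and 0.0501. The other probe set, 1420692_at, had means of 3.12 and 3.02, both within the negative control range. The mean over both probe sets differed by 0.51 (adjusted p = 0.142). CD25 also marks activated and regulatory T cells. The 6 measured T cell genes had group means under the median of all probe sets in both groups, and their summed log2 level was 31.0 to 31.5 in controls and 31.3 to 32.4 in dKO arrays. Of the 5 regulatory T cell and ILC2 genes, 3 had a group mean above that median, and their sum was 27.0 to 29.8 in controls and 27.2 to 29.6 in dKO arrays. Singled out after their values were seen, Foxp3 had means of 6.42 and 6.49, Gata3 6.26 and 6.34, and Ctla4 3.76 and 3.86. In the same list, Rora was lower in dKO cells, with means of 7.96 and 6.22 (limma adjusted p = 0.0158). Il7r had means of 4.39 and 5.26, and its groups overlapped. The part of such cells in the Il2ra signal was not tested.

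The genes around the members were taken from 6 lists written from general knowledge of the pathway, each gene read by its brightest probe set. By that measure 4.49% of 18193 genes were called higher and 3.56% lower, with a median difference of 0.01 over all genes. Of 10 measured JAK and STAT genes, 2 rose and 0 fell, with 1 lower at an unadjusted p under 0.05 (list median 0.20). Stat2, a factor of the interferon response, rose by 1.47 ± 0.26 (SE, log2; limma adjusted p = 0.0203). Jak2, the kinase of the erythropoietin receptor, rose by 0.62 ± 0.14 (adjusted p = 0.0417). The other Stat2 probe set differed by 0.89 and the other Jak2 probe set by 0.52, and neither passed (adjusted p = 0.121 and 0.133). By its brightest probe set, Stat5a itself was lower in all 3 dKO arrays than in any control. It did not pass, with a difference of -0.65 ± 0.16 (adjusted p = 0.0632). It passed after quantile normalization (0.0477), after the filter on low values (0.0322) and with a trended robust prior (0.0232). The means of this probe set were 10.25 and 9.60. The other Stat5a probe set differed by -0.26, its groups overlapped, and it did not pass (adjusted p = 0.502). Dropping any single array ended the Jak2 call (adjusted p as high as 0.124). The Stat2 call ended when control replicate 2, control replicate 3, dKO replicate 1 or dKO replicate 2 was dropped (as high as 0.0698).

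Of 17 receptor chains that signal through STAT5, 3 rose and 2 fell (list median 0.06). Csf2rb, the beta chain shared by the receptors for interleukin-3, interleukin-5 and GM-CSF, went from 7.56 ± 0.20 to 9.55 ± 0.39 (SD, n = 3 each), a rise of 1.99 ± 0.22 (SE, log2; adjusted p = 0.00524). Csf2rb2, its near-identical neighbour that serves interleukin-3 alone, rose by 3.34 ± 0.37 (adjusted p = 0.00507). Probes may not separate these 2 genes, so their rises are not counted as independent. Kit, the receptor for stem cell factor, fell by 0.87 ± 0.12 (adjusted p = 0.0101). Completing the 5, and named after their values were seen, were the interleukin-4 receptor chain Il4ra, higher by 1.43 ± 0.22, and the interleukin-15 receptor chain Il15ra, lower with a difference of -0.94 ± 0.17. The 2 other Il4ra probe sets differed by 0.45 and -0.03 and did not pass. The Il15ra call was kept only without dKO replicate 2 when 1 array was left out (adjusted p up to 0.0651).

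In the gp130 family, to which Osm belongs, 3 of 11 genes rose and 0 fell, with 1 lower at an unadjusted p under 0.05 (list median 0.27). Lifr, a receptor chain that also binds oncostatin M in some species, rose by 1.49 ± 0.22 (SE, log2, adjusted p = 0.0124), from a control mean of 4.42. The other Lifr probe sets differed by 0.57 and 2.29 and did not pass (limma adjusted p = 0.384 and 0.0831). The groups overlapped in the former, and the control mean of the latter, 3.82, lay within the negative control range. The mean over all Lifr probe sets rose by 1.45 (adjusted p = 0.0240). Lif rose by 0.71 ± 0.15 and Il27ra by 0.65 ± 0.15. Dropping any single array ended these calls of Lif and Il27ra, with adjusted p as high as 0.0983 and 0.135. The other Lif probe set rose by 1.46 ± 0.27 (adjusted p = 0.0227), and its control mean, 3.83, lay within the negative control range. The mean over both Lif probe sets rose by 1.08 (adjusted p = 0.00586). The oncostatin M receptor Osmr had means of 3.28 and 3.99 and was not called, and the shared chain Il6st, which encodes gp130, had means of 9.06 and 8.72 and was not called either. These 2 were named for their place in the pathway after their values were seen.

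Of 19 other SOCS genes and brakes on cytokine signalling, 2 rose and 0 fell, also 0 lower at an unadjusted p under 0.05 (list median 0.27). They were the phosphatase Ptpn1, higher by 0.67 ± 0.13 (SE, log2; adjusted p = 0.0251), and Elob, the elongin B of the SOCS box ligase, higher by 0.73 ± 0.15 (adjusted p = 0.0326). Eloc, its partner elongin C, had a difference of 0.51 ± 0.13 and did not pass (adjusted p = 0.0613). It passed after median centring, after the filter on low values and with a trended robust prior (adjusted p = 0.0438, 0.0311 and 0.00313). Another Eloc probe set rose by 0.57 (adjusted p = 0.0499), and those at 0.41 and -0.05 did not pass. The other Elob probe set rose by 0.71 (adjusted p = 0.0454). The other Ptpn1 probe set differed by 0.74 and did not pass (adjusted p = 0.0913). By the brightest probe set, neither the Ptpn1 nor the Elob call survived the loss of any single array, with adjusted p as high as 0.0824 and 0.0917. The paralogs Socs4, Socs5, Socs6 and Socs7 were among the 17 genes that were not called, and are named for their family after their values were seen.

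A list of 38 other genes described as STAT5 targets in blood cells had 37 measured, of which 20 rose, 1 fell and 16 were not called. Its median difference was 0.74. Some of these genes were known from earlier results of these data to rise, and the list is therefore no independent evidence of direction. The 3 with the smallest p were Gzmb, the granule protease granzyme B, higher by 7.17 ± 0.14 (SE, log2), Id2, an inhibitor of E proteins, higher by 2.94 ± 0.17, and Bhlhe40, a transcriptional repressor, higher by 3.07 ± 0.21. The other Id2 probe sets rose by 5.04 ± 0.21 and 0.89 ± 0.20, so the size of its rise differed by probe set. The control mean of the former, 3.78, lay within the negative control range. Named after their values were seen, the survival genes Bcl2l1 and Bcl2 rose by 1.88 ± 0.21 and 1.17 ± 0.15, while the related Mcl1 had means of 11.28 and 11.35 and was not called. The 1 gene that fell was Ikzf2, a factor of the Ikaros family, with a difference of -0.55 ± 0.13, which missed the threshold when any single array was dropped (adjusted p as high as 0.134). The other Ikzf2 probe sets differed by -0.26 and -0.56 and did not pass (limma adjusted p = 0.506 and 0.0718). Without dKO replicate 1 the list had 13 genes higher and 0 lower.

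Among 16 partners and substrates of PIM and GADD45 proteins, 2 rose and 3 fell (list median -0.05). Eif4b, a translation initiation factor that PIM kinases phosphorylate, fell by 1.23 ± 0.13 (SE, log2; adjusted p = 0.00420), and all 3 of its probe sets fell. Map3k5, the stress kinase ASK1, rose by 0.96 ± 0.16, and the transcription factor Foxo3 fell by 0.71 ± 0.13. The other 2 called genes, named after their values were seen, were Eif4ebp1, a repressor of translation initiation (-0.80 ± 0.16), and Pcna, the replication clamp that binds GADD45 proteins (0.60 ± 0.13). The other Eif4ebp1 probe sets differed by -0.44 and -0.13 and did not pass (limma adjusted p = 0.207 and 0.831). The other Map3k5 probe set differed by 0.81 and did not pass either (adjusted p = 0.116). Foxo3, Eif4ebp1 and Pcna missed the threshold when any single array was dropped (adjusted p as high as 0.0721, 0.101 and 0.102), and Map3k5 passed only without dKO replicate 1 (as high as 0.0678 otherwise). The Gadd45g paralogs Gadd45a and Gadd45b, also named afterwards, went from 6.81 to 7.16 and from 6.78 to 7.40 and were not called.

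**Figure D4:**
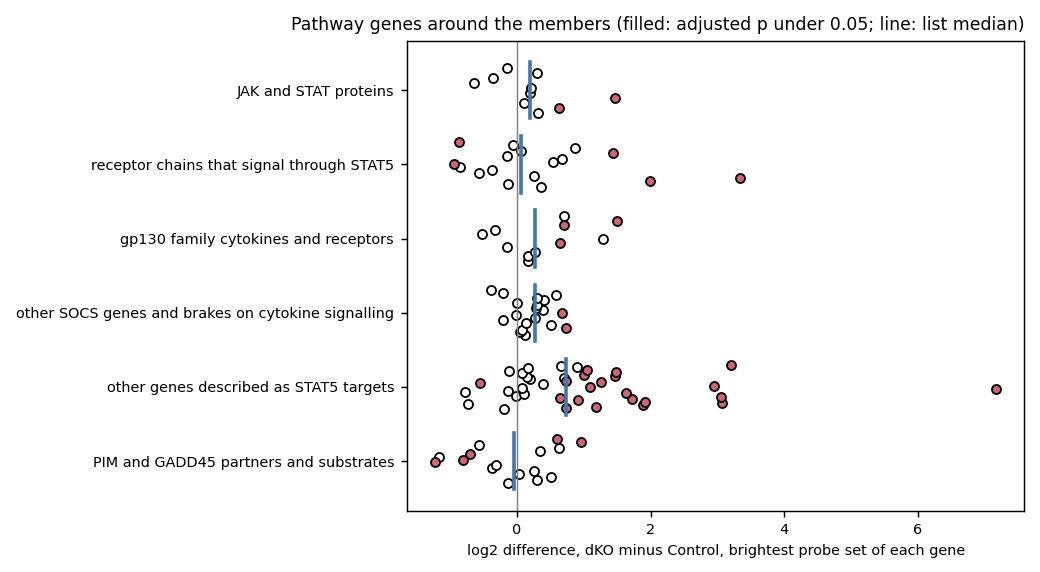
The log2 difference, dKO minus control (x axis), is plotted for each gene of the 6 pathway lists by its brightest probe set, filled red where the adjusted p was under 0.05, with a blue line at each list median. The list of other STAT5 targets has 20 filled points to the right of 0 and 1 to the left, with Gzmb at 7.17, and the list medians run from -0.05 to 0.74.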

How the data were processed

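The deposited values are RMA expression values, per the submitters' processing notes, on a log2 scale, as the deposited values of 1.49 to 13.85 show; for RMA's version, its settings and the genome build, the sources used here give nothing. RNA was amplified over 2 rounds before labelling, per the labels' protocols. RMA scales arrays to each other, so all changes are relative, and it compresses changes of dim probe sets.

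From these values, limma 3.58.1 (R 4.3.3; lmFit, eBayes) was fitted to 45037 probe sets, dKO minus control, without a block, after leaving out 64 array controls, with Benjamini-Hochberg adjustment over all of them (threshold 0.05). The scripts were tested on simulated data. P-values measure the spread between pools. Only the 34945 probe sets with a single gene symbol were named, not the 932 with more than 1 or the 9160 without. A gene's brightest probe set over all 6 arrays stood for it in lists. Background was judged from 3 negative control probe sets (AFFX-TrpnX). Promoters are from RefSeq. The labels do not tie arrays of equal replicate number to a shared litter or day. The deviations of such arrays correlated at -0.02 to 0.01, which cannot show that none was shared.

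Members and lists were chosen with earlier results of these data known. Named were all members, the 3 genes of smallest p per list, Myc and Mycn; others are marked as singled out afterwards. Alternatives were median centring, quantile normalization, a filter on low values, a trended robust prior, array weights, a replicate block, the mean over a gene's probe sets, and leaving out each array. A planned comparison of protein sequences was not run. Some listed genes are not analysed here, and most that were are given only in counts.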

Additional observations from a re-analysis of the deposited data

How the results depend on the processing

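Of the 14 member probe sets called, 8 kept their call under every alternative that held them: Cish, the Socs2 probe sets 1449109_at and 1418507_s_at, both rising Socs3 probe sets, Pim1 1435458_at, Pim2 and Osm. With 1 array left out, 9 to 11 of the 21 were called, and 9 with the replicate block, where 1530 probe sets of the whole array passed; leaving out 1 array gave 1338 to 1674. With 1 array left out, the Socs1 difference ran from -0.10 (without dKO replicate 2) to 0.20 and was -0.04 without control replicate 2, and that of the Il2ra probe set 1420692_at ran from -0.30 to 0.074 (without control replicate 1). Neither was called in any setting. The filter on low values left 10 called, since it removed dim probe sets before testing. Of the genes named, calls were also lost with all 6 arrays and no block: Il2ra by the mean over its probe sets, Jak2, Elob and Il27ra after quantile normalization, Il27ra with array weights and Ikzf2 after median centring; the cause was not tested.

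In the lists, the replicate block left 1 JAK and STAT gene called, 1 gp130 family gene, 2 PIM and GADD45 partners and 0 of the other brakes (limma). Leaving out 1 array gave 0 to 1 JAK and STAT genes (3 to 4 at an unadjusted p under 0.05), 1 to 2 gp130 family genes, 1 to 2 partners, 13 to 15 other STAT5 targets, 4 to 5 receptor chains and 0 to 0 other brakes (4 to 7 unadjusted). The filter on low values left 1 gp130 family gene, since fewer genes were tested, and gave 4 other brakes, which numbered 1 after quantile normalization and 5 by the mean over probe sets; the cause was not tested. Dim signal limits Socs1, Il2ra and the controls of Socs3.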
